A study of Mus musculus with 7 samples.

Results

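The genes described here are 10 genes of the pluripotent and early embryonic programme: the developmental pluripotency associated genes Dppa2, Dppa3, Dppa4 and Dppa5a, the chromatin protein gene Utf1, the RNA-binding protein gene L1td1, and the zinc finger genes Sall1, Sall2, Sall3 and Sall4. They were chosen by name, and all 10 were found among the 55484 genes of the deposited count table. They were measured by RNA sequencing in 4 libraries of mouse embryonic fibroblasts (MEFs), which are cultured connective tissue cells of the embryo, and in 3 libraries of mouse embryonic stem cells (mESCs), which are cultured pluripotent cells. The study gives a C57/Bl6 background for both cell types in the methods of its chromatin libraries, and its section on transcriptional data names no strain. No treatment or further allele is given for either cell type. The RNA-seq libraries, which the study describes as existing data of its laboratory, accompanied a comparison of sequencers on chromatin accessibility. In that comparison MEFs were sorted as THY1+ and mESCs as THY1-, SSEA1+ and EPCAM+. Whether the RNA came from sorted cells is not given in the sources used here. The genes were compared between the cell types to ask how their transcripts differ between the pluripotent and the fibroblast state.

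DPPA2 and DPPA4 are small nuclear proteins with a DNA-binding SAP domain that act as partners and are known for keeping developmental gene promoters in a primed chromatin state. DPPA3, also called Stella or PGC7, is a maternal protein that protects DNA methylation in the early embryo and interferes with UHRF1, the partner of the maintenance methyltransferase, while DPPA5A is an RNA-binding protein with a KH domain. UTF1 binds chromatin at developmental genes, and L1TD1 is an RNA-binding protein derived from a LINE-1 element that associates with LIN28A. The SALL proteins are zinc finger transcription factors that recruit the NuRD co-repressor complex, and SALL4 is the family member best known for a role in pluripotency, whereas SALL1 is best known from kidney development and SALL3 from limb and nerve development.

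The 4 MEF libraries held between 6528643 and 11441278 counts and the 3 mESC libraries between 7462710 and 8193825. Libraries are named A to D and A to C by falling total, which implies no order or pairing. A floor of 3 counts in a library corresponded to 0.262 to 0.460 CPM (the counts of a gene scaled to a common library size), a value that covers counting error only. Each of 14 fibroblast markers was lower in mESCs, with a summed level of 24171 to 39308 CPM in MEFs and of 435 to 474 CPM in mESCs. The sort marker Epcam was higher in mESCs. Fut4, which encodes an enzyme that can make the SSEA1 epitope, had too few counts to be tested, and its level does not measure the epitope. The extraction text in the labels describes blood stem cells of young and aged mice, and the column names carry an unexplained O for MEFs and Y for mESCs, so both may stem from another series; the columns were grouped by the cell type they name. Of the 16580 genes tested across all 7 libraries, 22.8% were higher and 25.0% lower in mESCs, and the median log2 fold change was 0.04 (edgeR's quasi-likelihood test, Benjamini-Hochberg adjusted p under 0.05). Without TMM scaling, which corrects library totals for their makeup, the median log2 fold change was larger by 0.28.

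Of the 10 genes, 9 were higher in mESCs and 1, Sall2, was lower (adjusted p under 0.05 in each case). Every mESC library lay above every MEF library for the 9 genes, which was so for 34.5% of all genes tested, and every mESC library lay below every MEF library for Sall2, which was so for 20.8%. The median log2 fold change of the 10 genes was 6.40. All 10 passed the filter on low counts. Of these, 6 reached its level of 1.24 CPM in at least 3 MEF libraries, and Dppa3, Dppa4, Sall1 and Sall3 passed through their mESC libraries. For Dppa3, Dppa4, Sall1 and Sall3 a call of lower in mESCs was therefore hardly possible. In bulk RNA, fewer cells with a transcript and less transcript per cell cannot be told apart. The study calls its transcriptional samples biological replicates, with fewer for MEFs than the libraries used here, and the labels do not say which libraries came from separate cultures. The p-values measure the spread between these libraries, part of which may be technical.

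**Figure D1:**
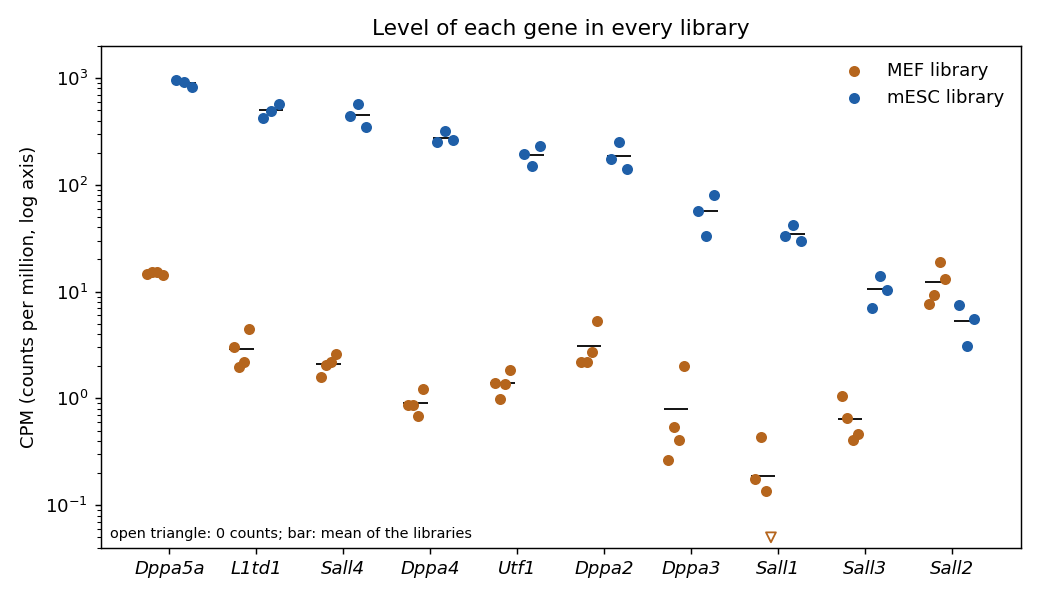
Level of each gene in every library, in CPM on a log axis, for 4 MEF libraries (brown) and 3 mESC libraries (blue), ordered by the mean mESC level. Short bars are means and the open triangle is a library with 0 counts; the groups lie apart for all 10 genes, and Sall2 is the gene whose MEF libraries are on top.

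The DPPA2 and DPPA4 genes are neighbours on chromosome 16 in the GRCm38 build, with Dppa4 (ENSMUSG00000058550) at chr16:48283733-48294237 and Dppa2 (ENSMUSG00000072419) at chr16:48303908-48319723, both on the plus strand. Dppa4 was at 252, 318 and 262 CPM in mESC-A, mESC-B and mESC-C. It was at 0.874, 0.872, 0.684 and 1.23 CPM in MEF-A to MEF-D, from 10, 8, 5 and 8 counts. The groups were far apart, and the log2 fold change of 7.96 ± 0.22 (SE; adjusted p = 6.03e-09) was the largest among the 10 genes and ranked 50 from the top of all genes tested. Dppa2 was at 173, 249 and 141 CPM in the mESC libraries. Its MEF libraries held 2.19, 2.18, 2.73 and 5.36 CPM, so that MEF-D was the highest of the 4. The log2 fold change of Dppa2 was 5.68 ± 0.33 (SE; adjusted p = 3.63e-07). Both genes were highest in mESC-B, and Dppa4 had 1.45, 1.28 and 1.85 counts for each Dppa2 count in the 3 mESC libraries.

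Both genes share sequence with processed copies elsewhere, so part of their counts is uncertain. Of the 50-base runs of annotated Dppa4 transcripts, 31.3% also occur in other genes, and for Dppa2 the share was 29.1%. The copies Gm14058 and Gm5501, which share runs with Dppa4, held 300 and 203 counts over the mESC libraries and 4 and 2 over the MEF libraries. The Dppa2 copies Gm8023 and Gm9788 held 99 and 50 counts in mESCs and 6 each in MEFs. A further gene that shares runs with Dppa2, Gm12874, held 6, 4, 6 and 14 counts in MEF-A to MEF-D, again with MEF-D highest.

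Dppa3 (ENSMUSG00000046323, chr6:122626410-122630272, plus strand) was at 57.1, 33.3 and 80.3 CPM in mESC-A to mESC-C. The level was 0.262, 0.545 and 0.410 CPM in MEF-A to MEF-C and 1.99 CPM in MEF-D, from 3, 5, 3 and 13 counts, so that 2 of the MEF libraries were above the 3-count floor. The difference was 5.98 ± 0.53 on the log2 scale (SE; adjusted p = 6.31e-06). Dppa3 varied most among the mESC libraries of the 10 genes, with a coefficient of variation of 41.3%, where counting error alone gives 4.74%. mESC-B, the highest library for Dppa2 and Dppa4, was the lowest for Dppa3.

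Dppa5a (ENSMUSG00000060461, chr9:78367052-78368177, minus strand) had the highest CPM of the 10 genes in every mESC library and the highest mean CPM in MEFs, where its libraries overlapped with those of Sall2, which was higher in MEF-C. It was at 963, 929 and 818 CPM in the mESC libraries, which placed it at rank 135 of all genes by mean mESC level. The MEF libraries held 14.5, 15.3, 15.3 and 14.2 CPM, the tightest spread of the 10 genes relative to the mean, from 93 to 166 counts. The log2 fold change was 5.64 ± 0.15 (SE; adjusted p = 5.95e-09), close to that of Dppa2 although the level in each cell type was several times higher.

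Dppa5a and Dppa3 each have close copies in the genome, and reads from the stretches that are alike cannot be assigned. The annotated Dppa5a transcript and its copy Dppa5b were 96.3% identical over 299 aligned columns, with 9 mismatches and 2 gap columns, and the transcript of Dppa5c was identical to that of Dppa5b. Dppa3 and its pseudogene Dppa3-ps were 98.2% identical over 451 columns, with 8 mismatches and no gap. The stretches below, 120 bases of coding sequence from GENCODE M21 transcripts on GRCm38 written 5′ to 3′, are shown because they hold 5 differences each and thus the bases that tell gene and copy apart, in capitals. They start at base 197 of the Dppa5a transcript and at base 171 of the Dppa3 transcript.
Dppa5a: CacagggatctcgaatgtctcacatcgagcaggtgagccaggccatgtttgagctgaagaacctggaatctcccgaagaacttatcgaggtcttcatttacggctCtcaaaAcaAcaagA
Dppa5b: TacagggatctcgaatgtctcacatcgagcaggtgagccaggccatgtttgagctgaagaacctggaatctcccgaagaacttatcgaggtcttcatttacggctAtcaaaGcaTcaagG
Dppa3: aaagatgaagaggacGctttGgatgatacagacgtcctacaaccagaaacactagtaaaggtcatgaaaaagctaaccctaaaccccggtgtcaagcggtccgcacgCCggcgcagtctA
Dppa3-ps: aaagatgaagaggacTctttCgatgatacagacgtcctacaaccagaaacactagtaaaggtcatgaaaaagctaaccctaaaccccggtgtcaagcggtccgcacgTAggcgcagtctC
In the Dppa5a stretch 4 of the 5 differences fall close to the end, and the long run before them is the same in gene and copy. Counts given to these copies were few. Dppa5b and Dppa5c held 48 and 66 counts over the mESC libraries and 3 each over the MEF libraries, and Dppa3-ps held 3 and 1. Other genes that share runs held more. Pigp, which shares 70 runs of 50 bases with Dppa5a, held 1978 counts over the mESC libraries and 1381 over the MEF libraries. Gm15620, which shares 21 runs with Dppa3, held 320 and 249. The part of such sharing in the MEF counts of Dppa5a and Dppa3 was not tested. Over the whole gene, 38.6% of the 50-base runs of Dppa5a and 16.5% of those of Dppa3 occur in other genes. Reads that map to several places were not counted, so the levels of both genes leave out such reads.

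Utf1 (ENSMUSG00000047751, chr7:139943789-139945112, plus strand) was at 195, 150 and 232 CPM in the mESC libraries. It was at 1.40, 0.981, 1.37 and 1.84 CPM in MEF-A to MEF-D, and the log2 fold change was 6.83 ± 0.24 (SE; adjusted p = 1.82e-08). L1td1 (ENSMUSG00000087166, chr4:98726734-98738480, plus strand) was at 423, 493 and 577 CPM in mESC-A to mESC-C. Its MEF libraries held 3.06, 1.96, 2.19 and 4.44 CPM, and the log2 fold change was 7.15 ± 0.26 (SE; adjusted p = 2.15e-08). mESC-C was the highest library for both genes, as for Dppa3. No 50-base run of Utf1 occurs in another gene, and 1.44% of those of L1td1 do.

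**Figure D2:**
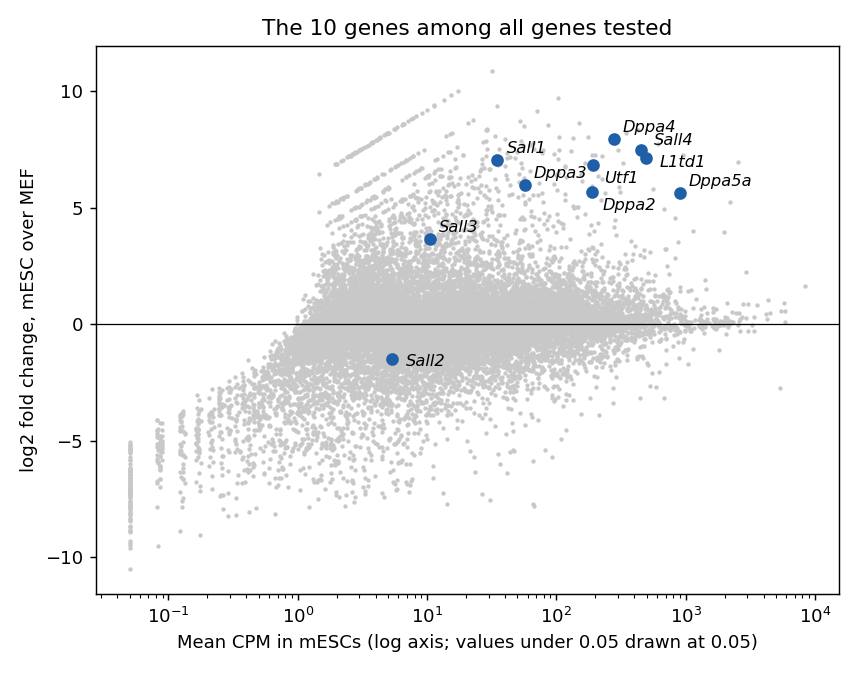
The 10 genes (blue, named) among all 16580 genes tested (grey). The x axis is the mean CPM in mESCs on a log axis and the y axis the log2 fold change of mESCs over MEFs; 9 genes lie from 3.67 to 7.96 and Sall2 lies at -1.48.

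Sall4 (ENSMUSG00000027547, chr2:168748332-168767943, minus strand) was at 437, 577 and 345 CPM in the mESC libraries. Its MEF libraries held 1.57, 2.07, 2.19 and 2.60 CPM, from 16 to 19 counts each. With 7.49 ± 0.26 (SE; adjusted p = 1.64e-08), its log2 fold change was the next largest after Dppa4. An annotated antisense gene, Gm14261, overlaps 526 exonic bases of Sall4, or 9.50% of them, and since the strand setting of the counting is not given, reads of this stretch cannot be assigned. Gm14261 itself held 30 counts in mESCs and 3 in MEFs.

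Sall1 (ENSMUSG00000031665, chr8:89027235-89044162, minus strand) was at 33.2, 42.3 and 29.5 CPM in mESC-A to mESC-C. MEF-A to MEF-D held 2, 4, 1 and 0 counts, and a count of 0 in MEF-D allows up to 0.460 CPM. The fitted log2 fold change of 7.07 ± 0.47 (SE; adjusted p = 8.78e-07) rests on these 7 MEF counts. Sall3 (ENSMUSG00000024565, chr18:80966376-80986771, minus strand) was the faintest of the 9 genes that were higher in mESCs, at 7.08, 14.1 and 10.5 CPM. Its MEF libraries held 12, 6, 3 and 3 counts, or 1.05, 0.654, 0.410 and 0.460 CPM. The log2 fold change of Sall3 was 3.67 ± 0.47 (SE; adjusted p = 9.21e-05), the smallest rise of the 9.

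Sall2 (ENSMUSG00000049532, chr14:52311172-52328762, minus strand) went the other way. It was at 7.69, 9.26, 19.1 and 13.0 CPM in MEF-A to MEF-D and at 7.44, 3.10 and 5.49 CPM in mESC-A to mESC-C. The groups did not overlap, but the lowest MEF library and the highest mESC library nearly touched. The log2 fold change was -1.48 ± 0.42 (SE; adjusted p = 0.0131), and it did not pass a test against a fold change of 2 (adjusted p = 0.154).

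The makeup of the Sall family differed between the cell types. Summed over the 4 genes, the MEF libraries held 105 to 160 counts and the mESC libraries 2916 to 5131. Sall2 took 73.3%, 74.6%, 87.5% and 81.0% of the Sall counts in MEF-A to MEF-D and 1.54%, 0.487% and 1.41% in mESC-A to mESC-C. Sall4 took 15%, 16.7%, 10.0% and 16.2% in the MEF libraries and 90.1%, 90.6% and 88.4% in the mESC libraries. The mean share of Sall2 fell by 77.9 percentage points from MEFs to mESCs and that of Sall4 was 75.3 points higher (p = 0.0286 each, adjusted p = 0.0381, two-sided exact permutation test over all 35 arrangements, 4 shares tested). The share of Sall1 was 1.45% ± 1.53 (SD, n = 4) in MEFs and 7.01% ± 0.471 (SD, n = 3) in mESCs, with the same exact permutation p. Sall3 took 1.88% to 10.0% in the MEF libraries and 1.46% to 2.68% in the mESC libraries, a difference that did not pass (p = 0.257, exact permutation test). Dividing by exon length changed these shares little, to 80.3% for Sall2 in MEFs and 89.9% for Sall4 in mESCs. A p of 0.0286 is the smallest that 4 against 3 libraries can give, and the shares of a library sum to a whole, so the 4 tests are not independent.

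**Figure D3:**
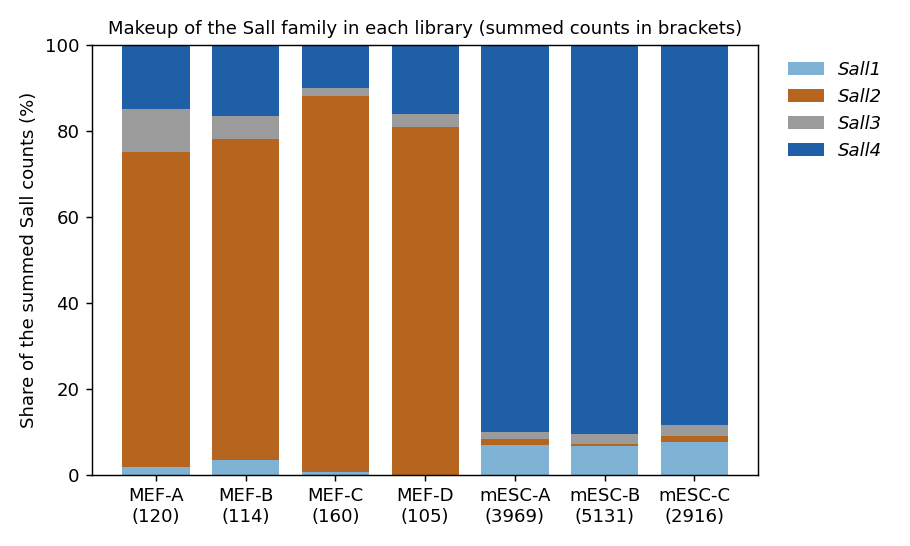
Share of each Sall gene in the summed Sall counts of every library, in percent, with the summed counts under each bar. Sall2 fills 73.3% to 87.5% of the MEF bars and Sall4 88.4% to 90.6% of the mESC bars.

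Compared per kilobase of annotated exon, the mESC level of Dppa5a was 1459 CPM per kb, above all the others. Dppa4, Utf1 and L1td1 followed at 167, 157 and 157 CPM per kb, with overlapping libraries. Sall4, Dppa2 and Dppa3 came next at 81.8, 76.8 and 63.8 CPM per kb, again with overlap between neighbours in this order. Sall1 was at 6.65 CPM per kb, and Sall3 and Sall2 were lowest at 1.41 and 0.984 CPM per kb, with overlapping libraries. The study's methods do not state how the libraries were primed. If they were read near the 3′ end, division by length would lower long transcripts such as those of the Sall genes more than in full-length libraries. On the plain CPM scale the order began with Dppa5a, L1td1 and Sall4, of which L1td1 and Sall4 overlapped. Among the mESC libraries, mESC-B was highest for Dppa2, Dppa4, Sall1, Sall3 and Sall4, mESC-C for Dppa3, Utf1 and L1td1, and mESC-A for Dppa5a. The coefficient of variation exceeded counting error in each of the 10 genes, from 8.42% against 1.18% for Dppa5a to 41.3% against 4.74% for Dppa3.

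The MEF level of the 9 genes that were higher in mESCs was low but seldom 0. As a share of the mESC level, with pooled counts over pooled totals, it ran from 0.324% for Dppa4 (exact 95% interval 0.220% to 0.461%) to 6.61% for Sall3 (4.15% to 10.1%), with a median of 0.713%. Sall4 was at 0.446% (0.347% to 0.564%), L1td1 at 0.575% (0.466% to 0.701%) and Utf1 at 0.713% (0.523% to 0.950%). Dppa2 and Dppa5a were higher, at 1.53% (1.25% to 1.87%) and 1.64% (1.50% to 1.79%). Dppa3 was at 1.24% (0.790% to 1.85%), and at 0.700% without MEF-D. The interval of Dppa5a does not meet that of Dppa4, Sall4, L1td1 or Utf1, where the intervals cover counting error only. Over all 3785 genes higher in mESCs the median share was 26.2%, and 332 of them, or 8.77%, were at or under 2%.

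MEF-D, the library with the fewest counts, was the highest MEF library for Dppa2, Dppa3, Dppa4, Utf1, L1td1 and Sall4, and the summed level of the 9 genes was 32.2 CPM there against 25.0 to 25.4 CPM in the other MEF libraries. MEF-D was highest for 3 of 12 core pluripotency factors and for 9 of 14 fibroblast markers, and the summed level of both lists was highest in MEF-B, at 384 CPM against 369 CPM in MEF-D for the core factors and at 39308 CPM against 33666 CPM for the fibroblast markers. The core factors had a median MEF share of 1.13%, from 0.385% for Sox2 to 23.6% for Klf5. In the opposite direction, the 14 fibroblast markers in mESCs had a median of 1.48% of their MEF level, from 0.490% for Twist2 to 51.0% for Fn1. The part of cell carry-over or of reads given to the wrong library in the residual counts was not tested.

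**Figure D4:**
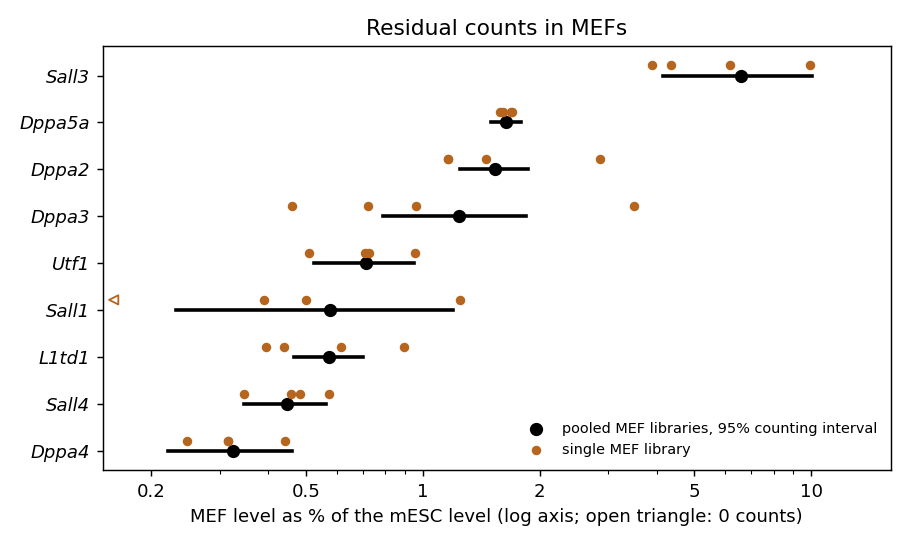
MEF level of the 9 genes higher in mESCs as a percentage of the mESC level, on a log axis. Black points are pooled MEF over pooled mESC libraries with 95% counting intervals. Brown points are single MEF libraries against the mean mESC CPM, and the open triangle is a library with 0 counts. MEF-D is the far point of Dppa3 at 3.50% and of Dppa2 at 2.85%.

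The genes next to the members were read from GENCODE M21, with the 3 nearest protein-coding genes on each side of the 9 loci. Of 53 genes read in this way, 34 could be tested, and 10 were higher and 6 lower in mESCs, with a median log2 fold change of 0.29. Over all genes tested, 22.8% were higher and 25.0% lower, so the counts over all loci set the neighbours little apart from other genes. At the Dppa3 locus, known as a cluster of pluripotency genes, 4 of 5 neighbours were higher. Gdf3, a TGF-beta family ligand 16.3 kb away, had a log2 fold change of 7.09 ± 0.24 (SE; adjusted p = 1.64e-08), and the homeobox gene Nanog, 77.2 kb away on the other side, 5.90 ± 0.16 (SE; adjusted p = 5.95e-09). The glucose transporter gene Slc2a3 was at 4.17 and the RNA-editing enzyme gene Apobec1 at 2.34, whereas Foxj2 was lower at -1.22.

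At the Dppa5a locus, Ooep, which encodes an oocyte KH-domain protein and lies 7.93 kb away, was at 7.24 ± 0.36 (SE; adjusted p = 1.27e-07), and the RNA helicase gene Ddx43 was at 3.39. Beyond Dppa2, the germ cell gene Morc1, 111.5 kb away, was at 7.50 ± 0.44 (SE; adjusted p = 3.63e-07). On the other side of Dppa4 the nearest protein-coding gene, Nectin3, was 1785 kb away and had a log2 fold change of 0.03. Next to Utf1, Kndc1 was higher at 3.92, while Adgra1 was lower at -3.85 and Tubgcp2 at -0.85. The 3 neighbours of Sall1 that could be tested had log2 fold changes of -0.34 to 0.52, with adjusted p of 0.188 or more by edgeR's test. The DNA-binding protein genes Tox4 beside Sall2 and Zfp64 beside Sall4 were higher at 0.60 and 0.78, from distances of 14.8 kb and 125.4 kb. Farther off, and not adjacent, Nfia was lower at -3.96 (607.9 kb from L1td1). Also not adjacent, Nfatc1 was at -3.04 (253.3 kb from Sall3) and Tshz2 at -6.32 (865.1 kb from Sall4). Among the neighbours called, Gdf3, Ooep, Ddx43, Morc1 and Kndc1 passed the filter on low counts only through their mESC libraries. Adgra1, Nfatc1 and Tshz2 passed it only through their MEF libraries. For these genes a call in the other direction was hardly possible.

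**Figure D5:**
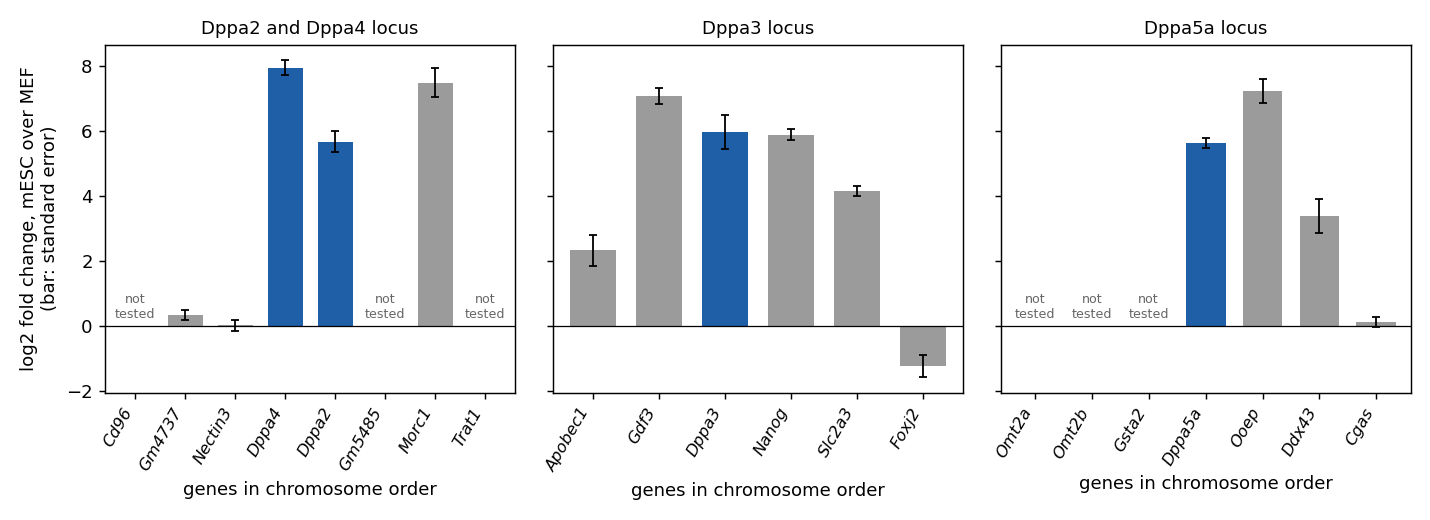
Log2 fold change of mESCs over MEFs (y axis) for the genes around Dppa2 and Dppa4, Dppa3 and Dppa5a, in chromosome order (x axis); members are blue, neighbours grey, and error bars are standard errors. Gdf3, Dppa3, Nanog and Slc2a3 stand side by side between 4.17 and 7.09, while Nectin3 lies near 0.

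RefSeq promoter windows on GRCm38.p6, from 250 bases before to 50 bases after an annotated start, were matched for 4 of the 10 genes: Utf1, L1td1, Sall1 and Sall2. They are shown for Utf1 and L1td1, which were higher in mESCs, and for both annotated starts of Sall2, the gene that was lower; capitals mark GC boxes (GGGCGG, searched on both strands).
Utf1, chr7:139943606-139943905, plus strand: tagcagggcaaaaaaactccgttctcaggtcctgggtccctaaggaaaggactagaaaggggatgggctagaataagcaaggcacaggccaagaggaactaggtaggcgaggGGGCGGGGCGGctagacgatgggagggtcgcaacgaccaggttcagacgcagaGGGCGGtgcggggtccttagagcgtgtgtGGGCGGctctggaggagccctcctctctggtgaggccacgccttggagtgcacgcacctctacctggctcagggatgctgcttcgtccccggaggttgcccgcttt
L1td1, chr4:98726504-98726803, plus strand: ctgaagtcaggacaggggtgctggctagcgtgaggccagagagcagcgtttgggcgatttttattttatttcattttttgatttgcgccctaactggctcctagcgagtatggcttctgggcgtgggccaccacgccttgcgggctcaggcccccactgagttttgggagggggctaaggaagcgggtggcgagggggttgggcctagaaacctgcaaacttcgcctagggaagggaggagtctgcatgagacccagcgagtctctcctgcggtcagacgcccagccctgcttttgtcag
Sall2 outer start, chr14:52328621-52328920, minus strand: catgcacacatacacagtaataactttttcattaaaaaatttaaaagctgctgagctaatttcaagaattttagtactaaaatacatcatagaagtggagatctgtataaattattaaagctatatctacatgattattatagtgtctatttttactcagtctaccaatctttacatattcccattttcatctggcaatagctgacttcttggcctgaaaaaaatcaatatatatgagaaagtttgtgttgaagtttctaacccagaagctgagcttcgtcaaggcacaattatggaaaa
Sall2 inner start, chr14:52316274-52316573, minus strand: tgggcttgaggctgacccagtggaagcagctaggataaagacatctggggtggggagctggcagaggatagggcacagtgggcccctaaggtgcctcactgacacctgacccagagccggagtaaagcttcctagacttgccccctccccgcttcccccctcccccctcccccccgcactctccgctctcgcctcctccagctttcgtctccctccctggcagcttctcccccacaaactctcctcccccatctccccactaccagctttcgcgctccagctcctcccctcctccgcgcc
The Utf1 window held 4 GC boxes, of which a pair overlaps by a single base, and 17 CpG sites, and the L1td1 window held 14 CpG sites and no GC box. The outer Sall2 window had 1 CpG site and 30.3% G and C, and the inner one 10 CpG sites and 65.0%. Neither held a GC box, and the counts, which are per gene, do not tell the starts apart. The 3 Sall1 windows held 18, 27 and 39 CpG sites and 0, 4 and 1 GC boxes. Over 32817 promoter windows of mouse genes the median was 7 CpG sites and 52.7% G and C, and 35.6% held a GC box. The octamer motif ATGCAAAT, searched on both strands, was in none of the windows of the 4 genes and in 1.74% of all windows. A motif match, or its absence, describes these letters and says nothing of binding.

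Genes of the pathways around the members were counted in 8 lists, of which 65 of 84 genes could be tested, with 42 higher and 13 lower in mESCs. Over all genes tested, 22.8% were higher and 25.0% lower, the shares to set beside each list count. The lists were chosen with earlier results of these data known, and the higher genes include the 12 core pluripotency factors. A list gene that passed the filter on low counts only through a single cell type could hardly be called in the other direction. Prdm14 and Nr5a2 of the core factors are such genes, with mean MEF levels of 0.0437 and 0.296 CPM. All 12 core pluripotency factors were higher, with Sox2 at 7.74 and Pou5f1 at 7.46 the largest log2 fold changes and Klf5 at 1.79 and Tbx3 at 1.83 the smallest, and the median was 6.12. Sox2 and Pou5f1 encode the factors that form the centre of the pluripotency network. Beside them, Dppa4 was at 7.96 and Sall4 at 7.49.

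Complexes that DPPA and SALL proteins work with were counted in the same way. Of 14 subunits of NuRD, the chromatin remodelling and deacetylase complex bound by SALL proteins, 3 were higher (Mta3 at 1.11, Hdac1 at 0.76 and Rbbp4 at 0.40, the last losing its call when any single library but MEF-A was left out) and 6 lower, with a median log2 fold change of -0.38. The remodeller subunit gene Chd3 was at -4.18, with 12.4 ± 4.02 CPM (SD) in the 3 mESC libraries and 187 ± 38.9 CPM (SD) in the 4 MEF libraries, while its paralogue Chd4 was at 0.02. Mbd2, a methyl-CpG binding subunit, was lower at -1.79. The summed level of the NuRD list was 1933 to 2001 CPM in the MEF libraries and 1975 to 2073 CPM in the mESC libraries. For COMPASS, the complex that methylates histone H3 at lysine 4 and is bound by DPPA2 and DPPA4, 6 of 11 subunits were higher, with Ash2l at 2.59 and Dpy30 at 1.87, and 3 were lower: Men1 at -1.26, Cxxc1 at -0.57 and Setd1b at -0.51, of which the last 2 lost their call without MEF-C, mESC-A or mESC-B among others. The count of higher COMPASS subunits was 4 or 5 in each of the 7 fits that left out a library, and 2 in the test against a fold change of 2. Of 10 subunits of the Polycomb complex PRC2, 8 were higher, with Epop at 3.45 and Jarid2 at 3.34, Phf1 was lower at -3.16, and Phf19 was at 0.55 without passing.

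Of 8 DNA methylation factors, 5 were higher: Dnmt3l at 6.80, Dnmt3b at 4.32, Tet1 at 4.02, Tet2 at 2.69 and Uhrf1 at 1.01. Uhrf1, whose protein DPPA3 interferes with, did not pass without MEF-B, mESC-A or mESC-B. Tet3 and Dnmt3a were lower at -1.89 and -0.72, and Dnmt1 was at 0.12 without passing. Of 7 RNA-binding protein genes listed beside L1td1, 5 were higher, with Dazl at 6.68 and Lin28a at 6.40, Igf2bp2 was lower at -0.74, and Igf2bp3 was at 0.41 without passing. Among relatives of the Dppa and KH-domain genes, 3 of 8 could be tested and all 3 were higher: Khdc3 at 8.35, Ooep at 7.24 and Tle6 at 1.48. Ooep reached the filter's level of 1.24 CPM in 1 MEF library, so a call of lower was hardly possible for it. Dppa1 held 4 counts over the MEF libraries and 0 over the mESC libraries.

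The 2-cell-like genes, which DPPA2 and DPPA4 are known to switch on in a small part of mESC cultures, had too few counts to be tested. Of 14 listed, 13 were in the table, with a summed level of 0.262 to 1.2 CPM in MEFs and 1.47 to 2.93 CPM in mESCs. Of the 13, 8 had 0 counts in all MEF libraries and 5 in all mESC libraries, among them Duxf3. With several near-identical copies in the genome, the counts of Zscan4 and Usp17 genes are uncertain.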

How the data were processed

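RNA-seq gene counts of 4 MEF and 3 mESC libraries were analysed. Reads were demultiplexed with Sabre and trimmed with Cutadapt. STAR was used for alignment to mm10, Je to collapse reads of the same molecular identifier, and featureCounts to count reads that mapped uniquely to exons. The authors deposited raw gene counts, whole numbers that carry no scaling. The submitters' processing notes give STAR 2.4.2a, and the study's methods name another version. The annotation release and strand setting are not given in the sources used here. Column names give the cell type, with an unexplained letter O or Y, but do not tie a column to a numbered sample, so libraries were grouped by cell type and named by total.

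Counts were compared with edgeR 4.0.16 (limma 3.58.1, R 4.3.3; TMM, filterByExpr, quasi-likelihood test over all 7 libraries, no covariates, Benjamini-Hochberg threshold 0.05); standard errors were derived from the F statistic. Sall shares were compared by an exact permutation test with scipy 1.17.1. MEF shares have exact conditional binomial intervals at 95%, and intervals and floors cover counting error only. Copies were aligned with Biopython 1.88. The code was tested on simulated data. Alternatives were DESeq2 1.42.0, its size factors, no TMM, other filters, a test against a fold change of 2, and each library left out; for the Sall shares pooling and division by length, and for the MEF shares TMM-scaled totals and a ratio of means. The members and lists were chosen with earlier results of these data known. Named are all members, the 2 largest and 2 smallest fold changes of each pathway list, list genes in a count of 5 or fewer, and neighbouring genes, whose rule was added after the data had been seen; 1 neighbouring gene is not reported here.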

Additional observations from a re-analysis of the deposited data

Results flagged for a closer look

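Among 57 sets of values of the 4 MEF libraries, checked for a library apart from the other 3, 2 were set aside for a closer look, where chance gives about 2.85. Dppa3 was at 1.99 CPM in MEF-D, and the next MEF library was at 0.545 CPM; this gap was 0.837 of the range of the 4 libraries, above Dixon's 95% critical value. The values rest on 13 and 5 counts. Tet2, a DNA demethylase gene of the DNA methylation list, was at 15.04 CPM in MEF-C, and the next MEF library was at 27.8 CPM; this gap was 0.927 of the range.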

How the results depend on the processing

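Of 130 alternative values of the members' fold changes, 129 kept their direction and their side of the threshold. The exception was Sall2, so that 0 members were lower in edgeR's test against a fold change of 2 (1, Sall2, at an unadjusted p under 0.05; the DESeq2 test, which was not against a fold change, also called Sall2 lower). Without TMM, 5180 genes were higher and 3345 lower in mESCs, against 3785 and 4153 with it, and list genes that were lower fell from 13 to 8; the test against a fold change of 2 left 5. In that test the higher NuRD subunits went from 3 to 0 (Hdac1, Mta3 and Rbbp4) and the lower ones from 6 to 3, the higher COMPASS subunits from 6 to 2 and the lower ones from 3 to 0, and Uhrf1, Tle6, Igf2bp2 and Dnmt3a also lost their call. The log2 fold change of Sall2 ran from -1.80 to -1.17 as each library was left out. Of 559 alternative values of 43 list genes, 516 kept direction and call, 33 lost the call, 4 gained one and 6, of genes that were not called, changed sign. Without TMM Igf2bp3 (0.69), Gatad2a (0.64) and Kmt2a (0.67) gained a call, Dnmt3a (-0.44), Cxxc1 (-0.29) and Setd1b (-0.22) lost theirs, and Gatad2b turned to 0.063; Mta2 gained one without mESC-A (-0.60). Chd4 was at -0.018 with no filter, at -0.00618 with the stricter filter and between -0.052 and 0.085 with each library left out. Leaving out a library ended the call of Cxxc1 (without MEF-A, MEF-C, MEF-D, mESC-A or mESC-B), Rbbp4 (any but MEF-A), Setd1b (MEF-C or any mESC library) and Uhrf1 (MEF-B, mESC-A or mESC-B), at 0.80 to 0.92 for Uhrf1. Lower COMPASS subunits went from 3 to 1 without MEF-C, mESC-A or mESC-B. Differences in Sall share ran from 5.08 to 6.25 points for Sall1, -79.9 to -75.1 for Sall2 and 73.8 to 76.0 for Sall4 as each library was left out, where the smallest exact permutation p is 0.100 or 0.0667. With TMM-scaled totals the MEF share of Dppa5a was 1.99% and that of Sall4 0.543%. No paired analysis was possible because the count columns carry no number stated to be that of a sample. Depth limits Sall1, Sall3 and Dppa3 in MEFs, which rest on 7, 24 and 24 counts.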

Other observations

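Markers of other cell types were counted beside the members, where 22.8% of all genes tested were higher and 25.0% lower in mESCs. Primordial germ cells are known to use Dppa3. Of 6 germ cell markers, Ddx4 was higher in mESCs by 2.54, Dazl by 6.68 and Mael by 6.72 on the log2 scale, and the other 3 were tested without passing. Mael had a mean MEF level of 0.0437 CPM and passed the filter only through its mESC libraries, so a call of lower was hardly possible. Of 6 primitive endoderm markers, 3 could be tested: Pdgfra was lower at -4.22 and Dab2 at -1.71, and Gata6 was at -0.84 without passing. Gata4, Sox17 and Foxa2 did not pass the filter on low counts. Sox17 and Foxa2 had 0 counts in all MEF libraries and means of 4.17 and 1.78 CPM in mESCs. For both, not every mESC library reached the filter's level of 1.24 CPM. The summed level of this list was 123 to 207 CPM in MEFs and varied from 29.2 to 95.9 CPM between mESC libraries. Of 6 neural markers Sox1 was higher at 3.33, and Nes and Tubb3 were lower at -3.33 and -1.71. Of 7 kidney and limb mesenchyme markers, tissues in which Sall1 and Sall3 are known to act, 6 could be tested and 4 were lower in mESCs. Of 7 blood markers, Ptprc, Gata1 and Vav1 had too few counts to be tested. Of the 4 tested, Cd53, Cd34 and Runx1 were lower, and Spi1 did not pass. The summed level of the list was 102 to 119 CPM in MEFs and 12.7 to 18.4 CPM in mESCs. The extraction text in the labels speaks of blood stem cells, but which cells these counts came from was not tested.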
